A study of Mus musculus with 15 samples.

Results

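D218Y cells were G1E cells, a mouse proerythroblast line that lacks GATA1, carrying GATA1 with aspartate changed to tyrosine at residue D218 and fused to an estrogen receptor domain (GATA1-ER). The wild type cells carried the same fusion with no change in GATA1. There were 3 D218Y arrays and 3 wild type arrays among the 15 arrays of the series, and both groups had received 100 nM estradiol for 24 hours, which induces differentiation through the fusion protein. The other 9 arrays were 3 each of the lines D218G, R216Q and R216W, treated alike, and they enter here to share the estimate of spread and for the last comparison. D218G changes the same residue to glycine, and R216Q and R216W change a neighbouring arginine. All cells shared the GATA1-null background and the estradiol, and cells without estradiol were not analysed here. The arrays were chosen by their titles, and every gene with a probe set of 1 gene symbol was tested, which gave 19933 genes. Each construct was taken as 1 line, so that mutation and line cannot be told apart. The p-values therefore reflect only how much the cultures of a line varied.

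GATA1 is the transcription factor that drives red cell and megakaryocyte maturation. It binds GATA motifs, switches on the genes for haem, globin and the red cell membrane, and switches off genes of immature progenitors such as Gata2, Kit and Myb. The changed residue sits in the first of its zinc fingers, which binds some DNA sites and the cofactor FOG1 (gene Zfpm1). Changes in this finger are known in people with inherited anaemia and low platelet counts. In G1E cells, restoring GATA1 activity is known to stop proliferation and to start red cell maturation.

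The values were log2 RMA values, on which a difference of 1 is a 2-fold change, and they ran from 2.89 to 13.58 over the 15 arrays. The median standard deviation of a gene was 0.05 among D218Y arrays and 0.063 among wild type arrays. On the first principal component, which held 58.8% of the variance, the D218Y arrays lay between 34.53 and 37.11, the arrays of the other mutant lines between -13.31 and 2.05, and the wild type arrays between -22.49 and -18.85. Array 3 of D218G stood apart from its line. Klf1 (11.24 to 11.62), Tfrc (11.89 to 12.47) and Epor (10.47 to 11.09), markers of red cell precursors as the cells are labelled, were well above the array medians in all 6 arrays, and the granulocyte gene Mpo (5.53 to 5.82) and B cell gene Pax5 (5.93 to 6.19) were below them. Slc4a1, another marker of red cell precursors, was only a little above the array medians in D218Y, as its values below show. Array medians were 6.24 to 6.29 in D218Y and 6.31 to 6.41 in wild type, and the median log2 fold change over all genes was -0.07. After quantile normalization it was -0.015 and after cyclic loess -0.002. The files hold no detection calls, so a dim value may be background and a fold against it may be understated.

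Gata1 transcript, which includes that of the fusion construct, read 12.07, 12.05 and 12.08 in D218Y arrays and 12.35, 12.36 and 12.36 in wild type arrays. The groups did not overlap, and the D218Y level was 81.7% of the wild type level (log2 fold change -0.29 ± 0.03 SE, n = 3 each, limma adjusted p = 1.12e-06). Permuting the 6 arrays exactly (two-sided) gave p = 0.1, the smallest that 3 against 3 arrays allow. Whether the probe set also reads the disrupted allele, and the protein level, were not examined.

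In D218Y cells 8857 of 19933 genes differed from wild type at an adjusted p under 0.05, which is 44.4% of the genes tested. Of these, 4042 were higher (20.3%) and 4815 lower (24.2%). These shares over all genes stand beside every count of a gene group below. They depended on mean level, as the counts of brighter and dimmer genes later in this paragraph show. For a bright or a dim group they are therefore only a rough background. Changes of at least 2-fold were made by 711 genes (3.57%), with 471 higher (2.36%) and 240 lower (1.2%). At 4-fold the counts were 54 higher and 33 lower, and at 8-fold 12 higher and 9 lower. The excess of lower genes lay in dim probe sets. It remained under quantile normalization (3969 higher and 4341 lower) but not under cyclic loess (4276 higher and 3502 lower). Among the 9966 genes in the upper part of the range by mean level, 3745 were higher and 3055 lower, whereas among the 9967 dimmer genes 297 were higher and 1760 lower. The median change was 0.00 in the brighter genes and -0.09 in the dimmer ones, and the array medians were lower in D218Y as well. With the array median as a covariate, an alternative added after seeing the data, 3773 genes were higher and 3386 lower.

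**Figure D1:**
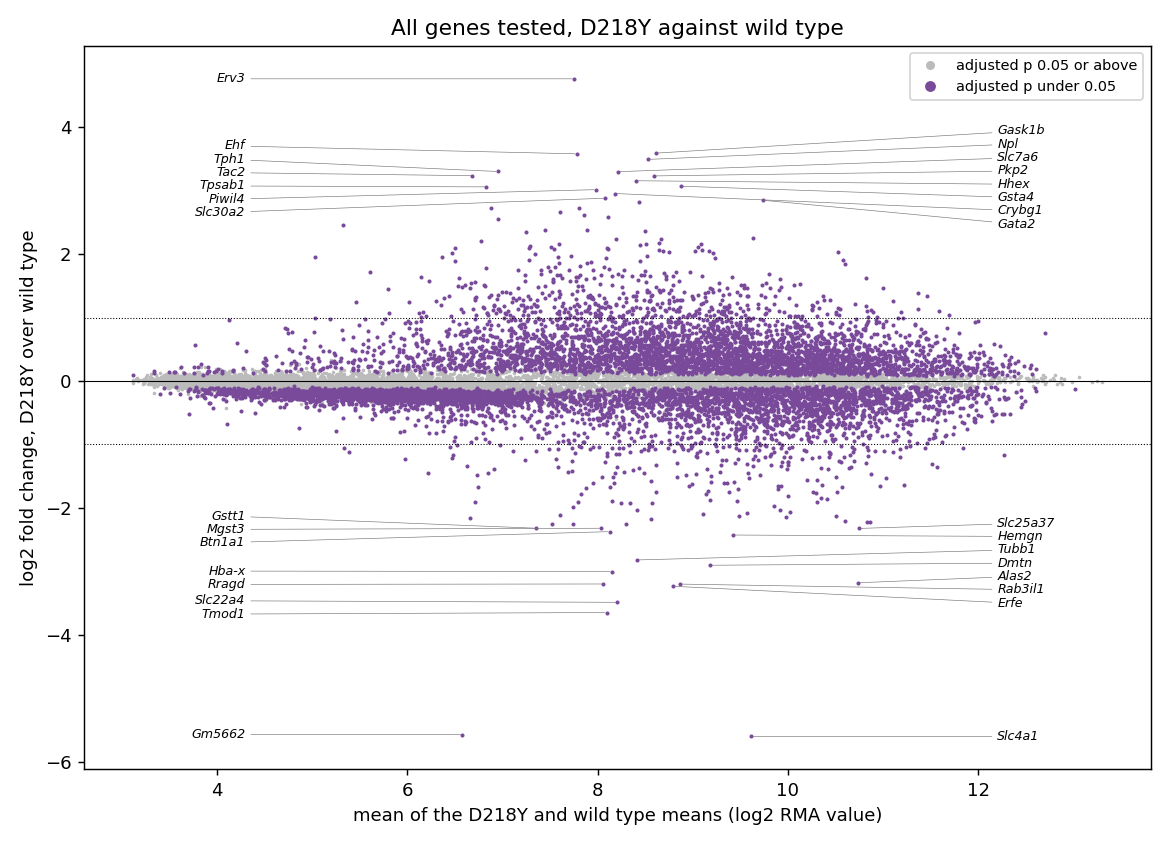
Log2 fold change of D218Y over wild type (y axis) against the mean of the 2 group means in log2 RMA values (x axis) for all 19933 genes, with genes at an adjusted p under 0.05 in purple and dotted lines at 2-fold. Slc4a1 and Gm5662 stand alone below -5, Erv3 has the highest value, and a band of dim genes lies just under 0.

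Slc4a1, which encodes band 3, the chloride and bicarbonate exchanger of the red cell membrane, fell most. It read 6.77, 6.93 and 6.72 in D218Y arrays and 12.43, 12.45 and 12.36 in wild type arrays. The level in D218Y cells was 48.6-fold lower (log2 fold change -5.60 ± 0.05 SE, n = 3 each, adjusted p = 2.12e-17). Of 21 red cell membrane proteins measured, 16 fell, 1 rose and 4 did not pass the test, with a median of -0.73 against -0.07 for all genes. Epb42, which links band 3 to the skeleton, read 6.64, 6.81 and 6.80 in D218Y arrays against 8.79, 8.64 and 8.79 in wild type arrays. The urea transporter gene Slc14a1 fell by 1.92 ± 0.07, the glycine transporter gene Slc6a9 by 1.91 ± 0.04 and the Rhesus antigen gene Rhd by 1.56 ± 0.04. Rhag and Ank1, encoding the Rh-associated glycoprotein and ankyrin, fell by 0.97 ± 0.04 and 0.78 ± 0.03. The nucleoside transporter gene Slc29a1 was the member that rose (0.85 ± 0.04), and the water channel gene Aqp1 was at -0.14 ± 0.09 (adjusted p = 0.23).

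Of 12 genes of the red cell membrane skeleton, 9 fell and 2 rose, with a median of -0.62. Tmod1, whose protein caps the short actin filaments of the skeleton, read 6.29, 6.38 and 6.15 in D218Y arrays against 9.88, 9.91 and 9.97 in wild type arrays (-3.65 ± 0.06, adjusted p = 2.29e-15). Dmtn, which bundles the same filaments, read 7.77, 7.67 and 7.75 in D218Y arrays and 10.60, 10.61 and 10.69 in wild type arrays (-2.91 ± 0.05). For both genes every D218Y array lay more than 2 log2 units below every wild type array. The spectrin gene Sptb fell by 0.63 ± 0.04, and the tropomyosin genes Tpm1 (0.20 ± 0.04) and Tpm3 (0.24 ± 0.04) rose. Actb, encoding cytoplasmic actin, was at -0.01 ± 0.03 (adjusted p = 0.72).

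**Figure D2:**
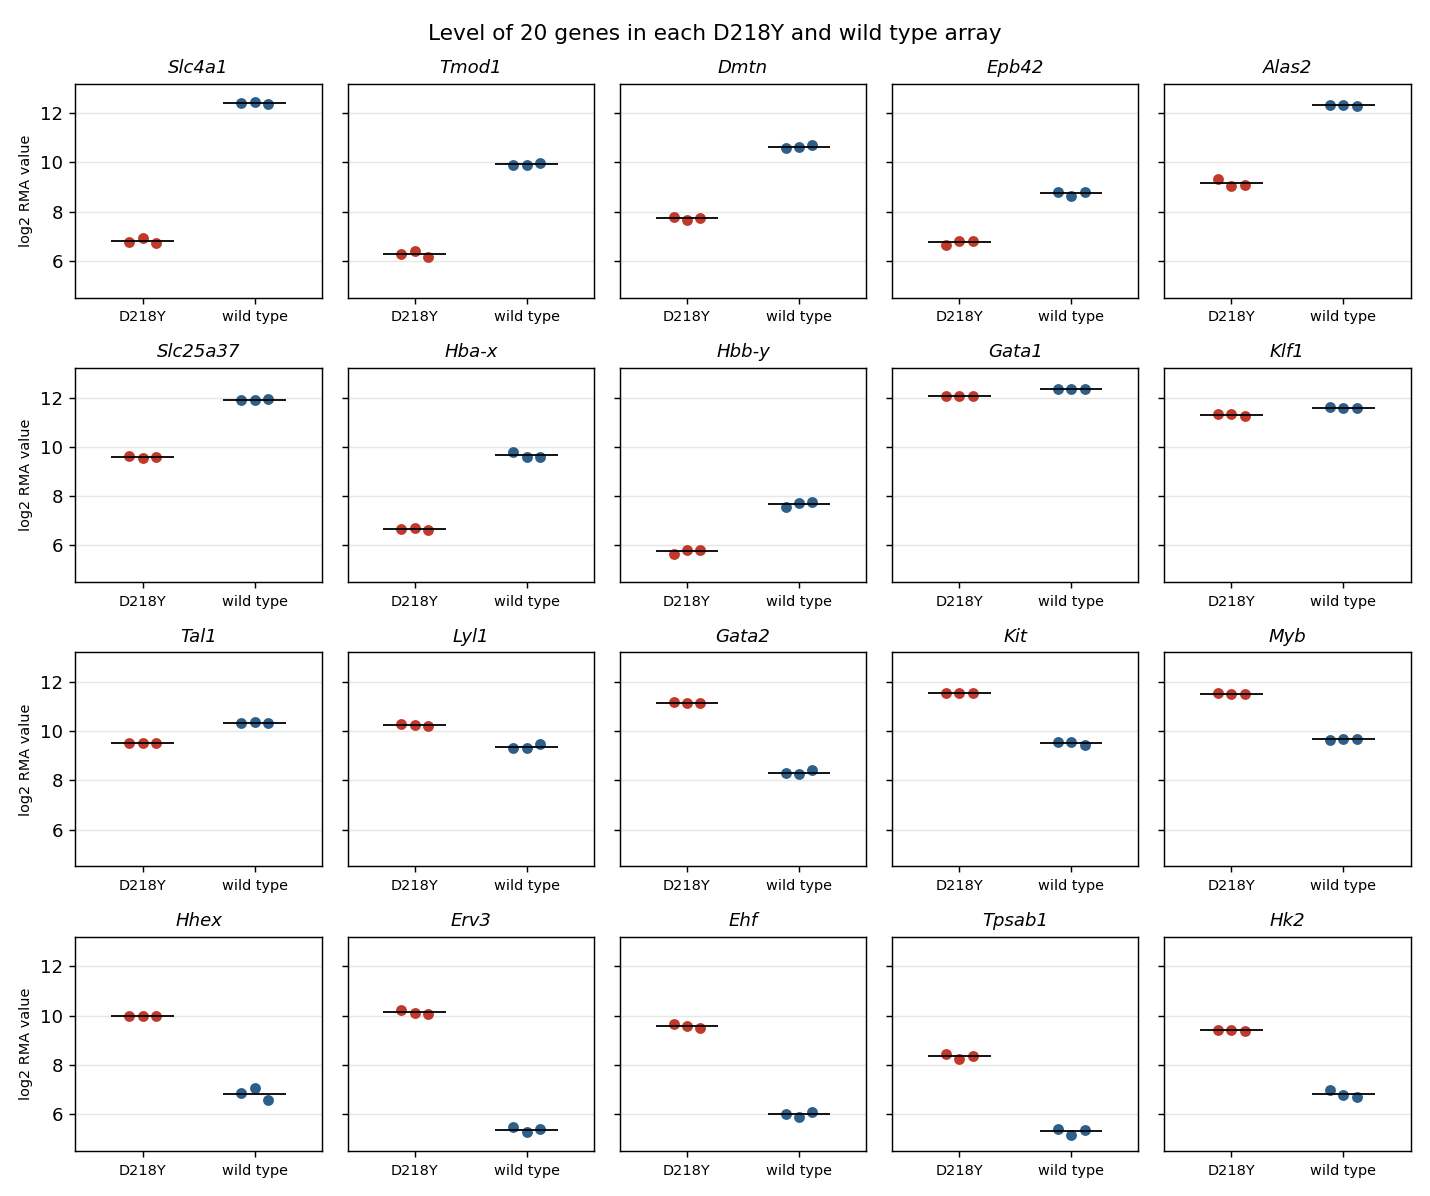
Log2 RMA value of 20 genes in each of the 3 D218Y arrays (red, left) and 3 wild type arrays (blue, right), with the mean as a line. Every panel is on the same axis, and the groups do not overlap in any of the 20 genes, as in 55.9% of all genes tested.

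Of 8 haem synthesis enzyme genes 6 fell and 2 rose, with a median of -0.95. Alas2, the erythroid form of the first enzyme of the pathway, read 9.32, 9.03 and 9.09 in D218Y arrays and 12.34, 12.35 and 12.29 in wild type arrays. It was 9.07-fold lower in D218Y (-3.18 ± 0.06, adjusted p = 1.64e-14). Downstream, Uros fell by 1.65 ± 0.04, Alad by 1.17 ± 0.03, Fech, whose enzyme inserts the iron, by 1.07 ± 0.05 and Urod by 0.84 ± 0.03. Alas1, the form of the first enzyme found in all tissues, read 8.54, 8.58 and 8.48 in D218Y arrays against 8.28, 8.26 and 8.23 in wild type arrays and rose by 0.28 ± 0.05. Ppox also rose (0.22 ± 0.04).

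Of 12 genes for mitochondrial iron handling or for haem transport, the latter not all mitochondrial, 8 fell and 2 rose, with a median of -0.55. Slc25a37 (mitoferrin-1), which brings iron into the mitochondria of red cell precursors, read 9.61, 9.56 and 9.58 in D218Y arrays and 11.90, 11.89 and 11.93 in wild type arrays (-2.33 ± 0.03). The mitochondrial transporter genes Abcb10 and Abcb6 fell by 1.31 ± 0.04 and 1.28 ± 0.04. Hspa9, a mitochondrial chaperone, rose by 0.66 ± 0.04 and Slc48a1, a haem transporter gene, by 0.56 ± 0.03. Iron uptake and handling was mixed, with 6 of 15 genes lower, 3 higher and a median of -0.03. Erfe, the hormone erythroferrone that red cell precursors release, read 7.18, 7.18 and 7.14 in D218Y arrays and 10.41, 10.35 and 10.46 in wild type arrays (-3.24 ± 0.04). The transferrin receptor gene Tfrc fell by 0.54 ± 0.03. Its relative Tfr2 rose by 1.44 ± 0.06, and Hmox1, whose enzyme breaks haem down, read 8.89, 8.61 and 8.62 in D218Y arrays against 6.80, 6.72 and 6.71 in wild type arrays (1.97 ± 0.09). The ferritin gene Fth1 was at 0.04 ± 0.03 (adjusted p = 0.3).

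All 6 globin genes measured fell, with a median of -1.84. The adult globin genes and Ahsp were not analysed here. Hba-x, the embryonic alpha-like globin, averaged 6.65 ± 0.05 in D218Y arrays and 9.65 ± 0.11 in wild type arrays (SD, n = 3 each) and was 8.02-fold lower in D218Y. The embryonic beta-like globin Hbb-y read 5.64, 5.81 and 5.81 in D218Y arrays against 7.54, 7.73 and 7.74 in wild type arrays (-1.91 ± 0.11). Hbb-bh1 fell by 1.76 ± 0.10 and Hbq1b by 2.25 ± 0.08. Hbq1a and Hbq1b are near-identical copies whose signals may not be separate. Hbb-bh2 changed least, at -0.37 ± 0.09, and its call was lost under quantile normalization and under cyclic loess. Since the samples were whole cultures, fewer cells of a type and less RNA per cell cannot be told apart for these or any other genes here.

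The promoter windows of Alas2, Hba-x and Hemgn, among the largest falls, and of Gask1b, among the largest rises, are shown, and each holds a GATA motif. The windows searched for Erv3 and Crybg1, also among the largest rises, held a GATA motif too and are not shown. That of Crybg1 was 1 of 3 windows. All windows run from 250 bases before the transcript's start into its first bases, from RefSeq on GRCm38.p6. Capitals mark AGATAA or TGATAA, each also with G as its last letter, on either strand.
Alas2 (chrX:150547167-150547466, plus strand): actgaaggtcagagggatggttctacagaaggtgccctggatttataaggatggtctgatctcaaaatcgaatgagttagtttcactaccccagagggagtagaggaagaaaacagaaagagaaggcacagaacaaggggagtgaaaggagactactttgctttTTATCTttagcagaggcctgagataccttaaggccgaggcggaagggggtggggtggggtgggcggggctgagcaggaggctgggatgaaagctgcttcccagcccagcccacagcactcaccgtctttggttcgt
Hba-x (chr11:32276350-32276649, plus strand): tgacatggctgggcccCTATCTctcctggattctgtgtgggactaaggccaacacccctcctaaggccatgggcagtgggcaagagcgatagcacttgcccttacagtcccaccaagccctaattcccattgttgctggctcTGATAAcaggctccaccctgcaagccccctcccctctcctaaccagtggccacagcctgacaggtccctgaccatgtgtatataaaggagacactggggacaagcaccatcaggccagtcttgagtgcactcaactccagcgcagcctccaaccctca
Hemgn (chr4:46404134-46404433, minus strand): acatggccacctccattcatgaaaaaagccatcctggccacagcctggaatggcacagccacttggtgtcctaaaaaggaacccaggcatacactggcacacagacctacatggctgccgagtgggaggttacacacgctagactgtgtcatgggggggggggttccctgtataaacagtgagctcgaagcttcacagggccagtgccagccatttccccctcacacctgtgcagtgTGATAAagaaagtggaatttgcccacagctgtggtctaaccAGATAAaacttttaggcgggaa
Gask1b (chr3:79885680-79885979, plus strand): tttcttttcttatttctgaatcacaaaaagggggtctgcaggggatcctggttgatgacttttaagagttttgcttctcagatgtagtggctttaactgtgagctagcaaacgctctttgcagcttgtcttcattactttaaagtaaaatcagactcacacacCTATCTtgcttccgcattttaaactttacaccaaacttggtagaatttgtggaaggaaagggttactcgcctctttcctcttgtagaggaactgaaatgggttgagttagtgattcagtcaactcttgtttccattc
The Alas2 match began 86 bases upstream of the start, the Hba-x matches 234 and 108 bases upstream, the first Hemgn match 13 bases upstream and the Gask1b match 87 bases upstream. Of the 19933 genes tested, 15610 had a window in the set searched. Some genes had several windows, and 1 window was taken for each gene. A match was held by 25.1% (3920 of 15610) of the genes with a window. The shares were 22.6% (43 of 190) of genes at least 2-fold lower and 20.7% (76 of 367) of genes at least 2-fold higher. For genes at least 4-fold changed the shares were 21.7% (5 of 23) of lower and 34.9% (15 of 43) of higher ones. The 15 largest falls and the 15 largest rises each had 3 of 11 windows with a match. The letters CCNCNCCC on either strand, as bound by Klf1-like factors, were in 58.9% of the 15610 windows. They were in 75.3% of the windows of genes at least 2-fold lower and 68.9% of those at least 2-fold higher. At 4-fold the shares were 69.6% (16 of 23) of lower and 58.1% (25 of 43) of higher genes. These are descriptions of the letters in the windows and not of binding.

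Among 28 genes of the GATA1 complex and of erythroid transcription factors 17 fell and 6 rose, with a median of -0.19. Klf1, which activates many red cell genes, read 11.33, 11.32 and 11.24 in D218Y arrays and 11.62, 11.56 and 11.56 in wild type arrays (-0.28 ± 0.04). Zfpm1 (FOG1) was at -0.25 ± 0.03 and Gfi1b, a repressor, at -0.16 ± 0.03, and both fell. Tal1, a partner of GATA1 in its activating complex, fell by 0.82 ± 0.04. Its relative Lyl1, by contrast, read 10.28, 10.24 and 10.21 in D218Y arrays against 9.32, 9.33 and 9.47 in wild type arrays and rose by 0.87 ± 0.05. The bridging partners Lmo2 (0.32 ± 0.04) and Ldb1 (0.10 ± 0.03) rose, the call of Ldb1 not holding under every alternative. Trim10, an erythroid ubiquitin ligase family member, fell most in the list (-1.70 ± 0.03). Hemgn, an erythroid nuclear protein outside the list, fell by 2.43 ± 0.05.

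The progenitor genes did not move as a block, since 9 of 25 rose, 4 fell and 12 did not pass, with a median of 0.01. Those that rose did so by up to 3.58. Gata2, which GATA1 normally silences as red cells mature, read 11.17, 11.15 and 11.16 in D218Y arrays and 8.29, 8.25 and 8.41 in wild type arrays (2.85 ± 0.04, 7.21-fold, adjusted p = 2.29e-15). Hhex, a homeobox factor of early progenitors, read 9.98, 9.99 and 9.97 in D218Y arrays against 6.86, 7.05 and 6.56 in wild type arrays (3.16 ± 0.10). Ehf, an Ets family factor best known from epithelia, read 9.67, 9.56 and 9.48 in D218Y arrays and 6.01, 5.88 and 6.08 in wild type arrays (3.58 ± 0.07). The 3 D218Y arrays differed by under 0.2 for each of these genes. Myb rose by 1.85 ± 0.03, Myc by 1.13 ± 0.05, Cd44 by 2.05 ± 0.05 and Spi1, the myeloid factor PU.1, by 0.78 ± 0.10. The genes that fell were Adgrg1 (-1.84 ± 0.04), Runx1 (-0.95 ± 0.04), Lmo4 and Fli1, so that Runx1 and Myb, both factors of early blood cells, went opposite ways. Cd34, Meis1, Hoxa9, Erg and Mycn were among those that did not pass.

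Of 17 genes of cytokine receptors and their signalling, 9 fell and 4 rose. Kit, the stem cell factor receptor, read 11.55, 11.54 and 11.53 in D218Y arrays and 9.54, 9.56 and 9.42 in wild type arrays (2.03 ± 0.04, 4.08-fold). The erythropoietin receptor gene Epor fell by 0.54 ± 0.04. Genes of interleukin receptor beta chains fell, Csf2rb2 by 1.38 ± 0.04 and Csf2rb by 0.54 ± 0.04, as did Il9r (-1.10 ± 0.05). Pim1, a kinase induced by cytokines, fell by 1.66 ± 0.04, while Socs2, an inhibitor of the same pathway, rose by 1.62 ± 0.04. Il3ra was at 0.00 ± 0.04.

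Markers of other lineages gave no single direction. Of 18 mast cell and basophil genes 6 rose, 3 fell and 9 did not pass. Among these calls, those of Srgn (0.26), Mcpt1 (-0.21) and Mcpt4 (-0.17) did not hold under every alternative. Tpsab1, a mast cell tryptase, read 8.45, 8.25 and 8.36 in D218Y arrays against 5.37, 5.15 and 5.36 in wild type arrays (3.06 ± 0.06). Tph1, the enzyme that begins serotonin synthesis, read 8.67, 8.57 and 8.55 in D218Y arrays and 5.30, 5.19 and 5.40 in wild type arrays (3.30 ± 0.07). Ms4a2, the beta chain of the IgE receptor, rose by 2.46 ± 0.08, Hdc, which makes histamine, by 1.11 ± 0.06 and the carboxypeptidase gene Cpa3 by 0.65 ± 0.07. The related tryptase gene Tpsb2 was at -0.09 ± 0.07 and the IgE receptor alpha chain gene Fcer1a at 0.00 ± 0.04, near 4 in both groups. The median change of the list was -0.03, with 4 genes at least 2-fold higher and none 2-fold lower. The mean of the list, on which those large rises weigh, ran from 5.62 to 5.66 over the D218Y arrays. It ran from 5.09 to 5.16 over the wild type arrays.

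Among 15 megakaryocyte genes 6 fell and 2 rose, of which the calls of Thbs1 (-0.13) and Nbeal2 (0.21) did not hold under every alternative. Tubb1, the platelet beta tubulin, read 6.88, 6.92 and 7.21 in D218Y arrays and 9.89, 9.74 and 9.85 in wild type arrays (-2.82 ± 0.09). Gp9 and Itgb3, subunits of platelet adhesion receptors, fell by 1.93 ± 0.06 and 1.91 ± 0.05, while Gp5 rose by 1.08 ± 0.08. Pf4, a defining platelet granule gene, stayed between 4.93 and 5.11 in all 6 arrays and did not pass (adjusted p = 0.14). Granulocyte and monocyte markers mostly did not pass (20 of 22), with Cd68 up by 0.47 ± 0.07 and Irf8 at -0.15 ± 0.06, a call that did not pass under 11 of the alternatives. Of 14 lymphoid markers 5 fell, and of 14 stromal and endothelial markers 2 fell, each by under 0.4. The lymphoid and stromal lists had means below 6 on every array, and the calls of Cd2, Cd8a, Dntt, Ebf1, Col3a1 and Cxcl12 did not hold under every alternative.

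Genes of mitosis and DNA replication were mostly lower. Of 24 mitosis genes 22 fell and none rose (median -0.35). Cenpf, a kinetochore protein, fell by 1.08 ± 0.04, with every D218Y array below every wild type array. Of 24 DNA replication genes 14 fell and 1, Cdt1, rose, led by Cdc6 (-0.69 ± 0.04). Genes that restrain the cycle fell as well, 19 of 22 with a median of -0.40. Among these, the calls of Mxd4, Cdkn1c, Cdkn2a, Gadd45b, Tob2 and Ccng2 did not hold under every alternative. Nor did those of Cdk1 in the mitosis list and of Mcm3, Mcm4 and Rfc4 in the replication list. Gadd45a fell by 1.62 ± 0.06, the CDK inhibitor genes Cdkn2c by 1.13 ± 0.05 and Cdkn1b by 0.68 ± 0.04, and Tob1, an antiproliferative factor, rose by 1.66 ± 0.05. Cyclin D genes split, since Ccnd3 read 10.47, 10.37 and 10.37 in D218Y arrays against 12.03, 12.06 and 12.01 in wild type arrays (-1.64 ± 0.04), whereas Ccnd2 rose by 0.84 ± 0.03. The phosphatase genes Cdc25b (-1.88 ± 0.04) and Cdc25c (-1.14 ± 0.04) fell and Cdc25a rose.

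Genes for making ribosomes rose together. All 29 nucleolar ribosome biogenesis genes measured were higher, by 0.13 to 1.48 with a median of 0.82. Of all genes 20.3% were higher, and of the 9966 brighter genes 3745 were. Rrs1 read 9.03, 9.05 and 8.92 in D218Y arrays and 7.77, 7.50 and 7.29 in wild type arrays (1.48 ± 0.11). The helicase gene Ddx21 rose by 1.28 ± 0.04 and Nop2 by 1.19 ± 0.04. Of 22 mitochondrial ribosomal protein genes 20 rose (median 0.45), led by Mrps27 (0.85 ± 0.06). Cytosolic ribosomal protein genes changed little, with 7 of 20 higher and a median of 0.07, and Rpl14 highest at 0.49 ± 0.10. That count is near the share of the brighter genes. Calls of cytosolic genes that did not hold under every alternative were those of Rpl4, Rpl7a, Rpl22, Rps4x and Rps9. In the other ribosome lists they were those of Ubtf, Mrpl4, Mrpl22 and Mrps9.

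Genes of glycolysis and amino acid supply were mostly higher. Of 20 glycolysis genes 16 rose and 1 fell, with a median of 0.63. Hk2, the inducible hexokinase, read 9.43, 9.41 and 9.37 in D218Y arrays and 6.97, 6.78 and 6.68 in wild type arrays (2.59 ± 0.09, 6.03-fold). Pgam1 rose by 1.90 ± 0.06, Pfkp by 1.36 ± 0.06 and the glucose transporter gene Slc2a1 by 0.95 ± 0.07. Bpgm, which makes the red cell's 2,3-bisphosphoglycerate, fell by 0.51 ± 0.07. The constitutive hexokinase gene Hk1 was at 0.02 ± 0.06, and it read -0.12 where a gene's probe sets were averaged. Of 23 ATF4 targets and amino acid supply genes 14 rose and 3 fell (median 0.40), including the amino acid transporter genes Slc7a5 (0.94 ± 0.03) and Slc7a11 (0.95 ± 0.10) and the enzyme gene Cth (1.01 ± 0.10). Of 19 chaperones 13 rose and 1 fell (median 0.28). Of 26 oxidative phosphorylation genes 11 rose and 1 fell, all by under 0.4, with a median of 0.06. That count of rises is near the share of the brighter genes, of which 3745 of 9966 rose.

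Other groups held members going both ways. Of 23 autophagy genes 12 fell and 5 rose, with Pink1, which marks damaged mitochondria, at -1.09 ± 0.05 and the mitophagy receptor gene Bnip3 at 1.31 ± 0.12. Of 14 remodelling and ubiquitin ligase genes 8 fell and 2 rose, led by Ranbp10 (-1.67 ± 0.04) and the ubiquitin conjugating enzyme gene Ube2h (-1.16 ± 0.06). Glutathione and peroxide genes split 7 up and 8 down of 20, from Gsta4 at 3.07 ± 0.07 to Gpx4 at -0.68 ± 0.05. The transcription factor gene Egr1 read 9.72, 9.66 and 9.66 in D218Y arrays and 7.29, 7.20 and 7.44 in wild type arrays (2.37 ± 0.06), while the MAPK phosphatase gene Dusp1 fell by 1.98 ± 0.04. Among the lysosomal genes, the protease gene Lgmn rose by 2.73 ± 0.07 and cathepsin B (Ctsb) fell by 1.54 ± 0.04. In the Bcl2 family 5 of 14 rose and 6 fell, among the latter the survival factor gene Bcl2l1 (-0.59 ± 0.03). The calls of Bik, Bok, Bcl2 and Mcl1 did not hold under every alternative. Nor did those of Atg4a and Atg5 among the autophagy genes and of Gss and Sod1 among the glutathione and peroxide genes. Sterol synthesis, interferon response and chromatin genes changed by at most 1.10 in size.

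**Figure D3:**
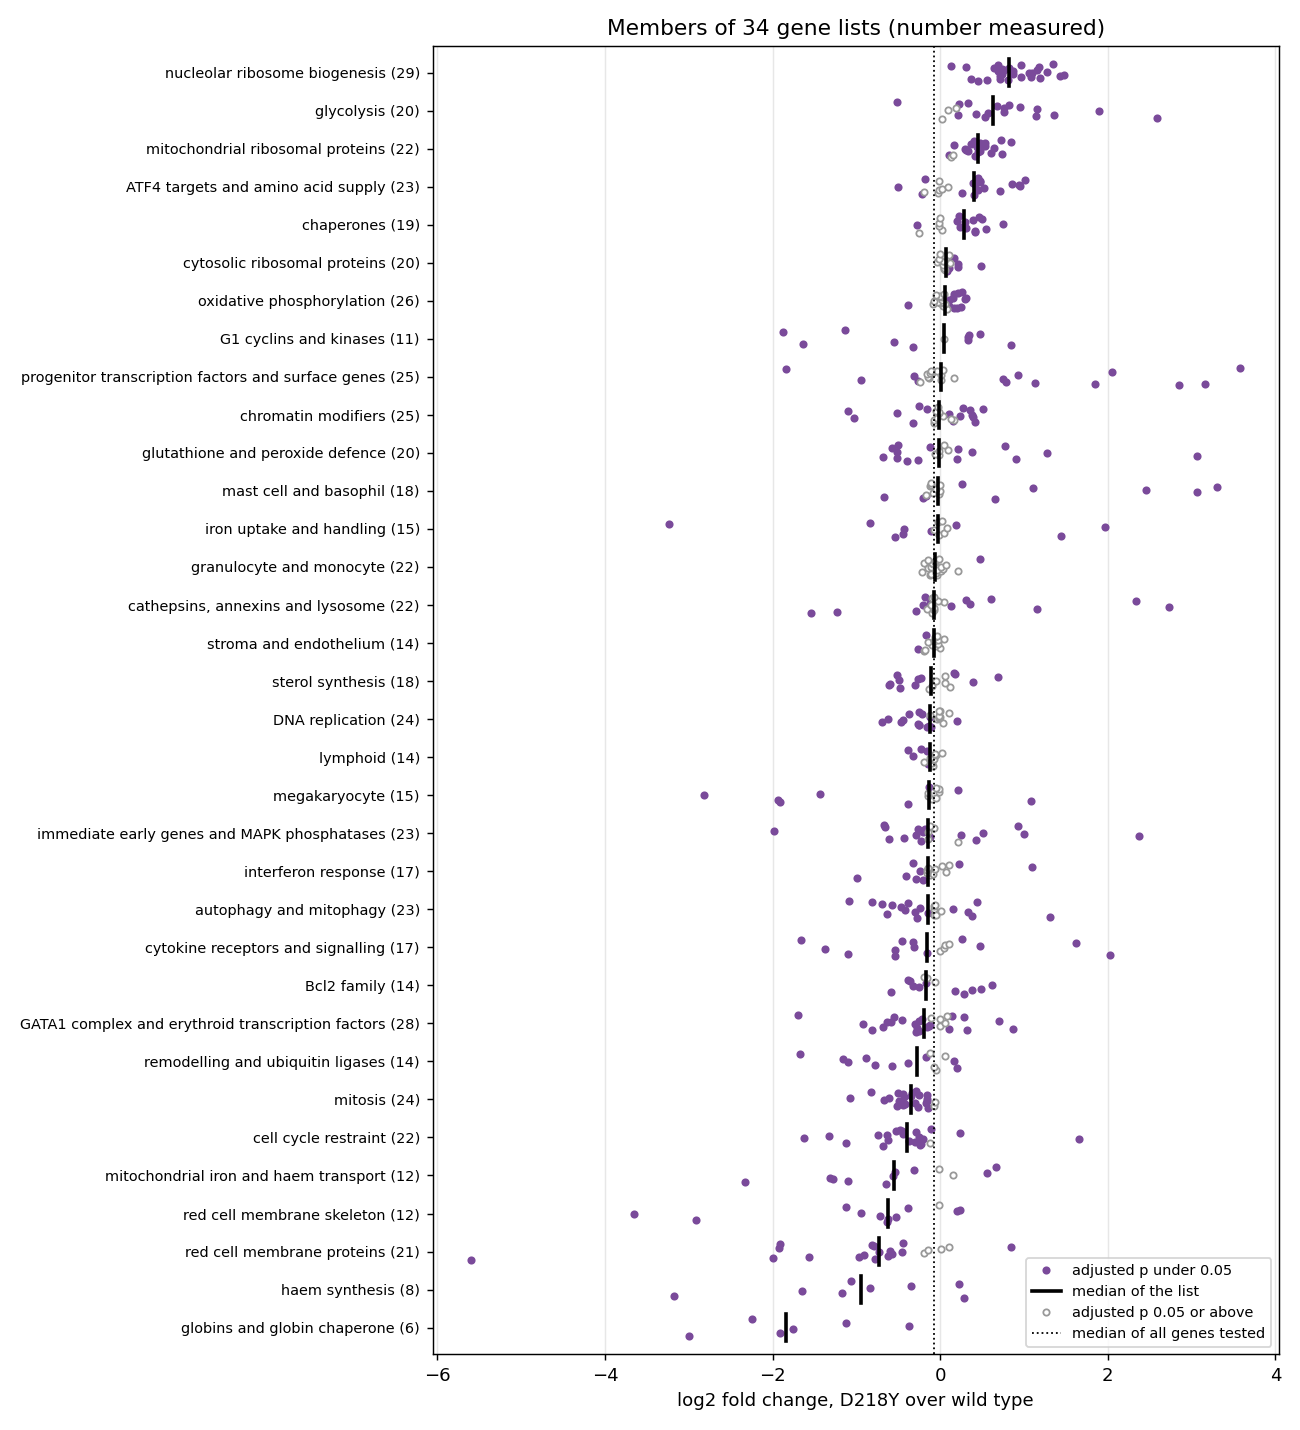
Log2 fold change of D218Y over wild type (x axis) for each measured member of the 34 gene lists (y axis, with the number measured), purple where the adjusted p was under 0.05, with the median of each list as a bar and that of all genes as a dotted line. Globins lie lowest and nucleolar ribosome genes highest by median.

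Further large changes lay outside these groups. Erv3, an endogenous retroviral gene, read 10.21, 10.12 and 10.07 in D218Y arrays and 5.48, 5.25 and 5.37 in wild type arrays (4.76 ± 0.09, 27.2-fold). Gask1b, a Golgi protein gene, rose by 3.59 ± 0.09, Npl, an enzyme gene of sialic acid breakdown, by 3.49 ± 0.07, and Tac2, a tachykinin precursor gene, by 3.24 ± 0.09. Other large rises were those of Slc7a6, an amino acid transporter gene, at 3.30 ± 0.08, Pkp2, for a desmosome protein, at 3.23 ± 0.07, Piwil4, of the Piwi family, at 3.02 ± 0.06 and Crybg1 at 2.96 ± 0.07. Among falls, Slc22a4, a carnitine and ergothioneine transporter gene, averaged 6.46 ± 0.09 in D218Y arrays and 9.95 ± 0.09 in wild type arrays (SD, n = 3 each; -3.49 ± 0.06). Rragd, a GTPase gene of amino acid signalling, was at -3.20 ± 0.08 and Rab3il1, an exchange factor gene for Rab proteins, at -3.20 ± 0.05, and both fell. The glutathione transferase family genes Mgst3 (-2.32 ± 0.08) and Gstt1 (-2.32 ± 0.11) and the butyrophilin gene Btn1a1 (-2.38 ± 0.06) fell as well. Gm5662, an unnamed gene singled out after its values were seen, read 3.91, 3.65 and 3.80 in D218Y arrays and 9.33, 9.50 and 9.25 in wild type arrays (-5.57 ± 0.18, 47.6-fold lower).

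Set against the other mutant lines, the D218Y line stood apart from each. It differed from D218G in 6583 genes (33% of those tested), from R216Q in 6343 (31.8%) and from R216W in 7230 (36.3%). Differences of at least 2-fold were found in 301 genes against D218G (1.51%), 210 against R216Q (1.05%) and 515 against R216W (2.58%). D218Y was higher in 17.4% and lower in 15.6% of genes against D218G, in 16.5% and 15.4% against R216Q, and in 18.8% and 17.5% against R216W. Without array 3 of D218G, which stood apart, D218Y was lower than D218G in 5231 genes, against 3107 with it. D218Y was above wild type and above each other mutant line in 2389 genes, and below all of them in 1634 genes, with every comparison past the threshold.

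Genes of the red cell membrane, globins and haem synthesis were mostly lower in D218Y than in each of the other mutant lines. Slc4a1 averaged 6.81 ± 0.11 in D218Y, 11.30 ± 0.03 in D218G, 11.35 ± 0.07 in R216Q, 12.29 ± 0.02 in R216W and 12.41 ± 0.05 in wild type (SD, n = 3 each). Alas2 averaged 9.15 ± 0.15 in D218Y, 11.79 ± 0.01 in D218G, 12.02 ± 0.03 in R216Q, 11.94 ± 0.05 in R216W and 12.33 ± 0.03 in wild type. Both were below each other line, the largest of these adjusted p values being 1.86e-13, for Alas2 against D218G. Of the 21 membrane protein genes 15 were lower in D218Y than in each of D218G, R216Q and R216W taken singly, and of the 6 globin genes all 6 were lower than in D218G and in R216Q and 5 than in R216W. Of the 8 haem synthesis genes 6 were lower than in each line taken singly. Iron uptake and handling was mixed here too, with 7, 6 and 5 of 15 genes lower than in D218G, R216Q and R216W and 3, 3 and 5 higher. Of the 29 nucleolar genes 27 were higher than in D218G and 28 than in R216Q and in R216W.

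For some genes another line came close to D218Y or went the other way. Tph1 averaged 8.60 ± 0.07 in D218Y, 5.16 ± 0.08 in D218G, 7.87 ± 0.13 in R216Q, 7.95 ± 0.08 in R216W and 5.30 ± 0.11 in wild type, whereas Tpsab1 was at 8.36 ± 0.10 in D218Y and between 5.14 and 5.47 in the means of the other lines. Pfkp did not pass between D218Y (10.18 ± 0.06) and R216Q (10.22 ± 0.09), with adjusted p = 0.604 and wild type at 8.82 ± 0.04. Pfkm did not pass between D218Y (10.82 ± 0.04) and D218G (10.84 ± 0.04; adjusted p = 0.716). Slc30a2, a zinc transporter gene, was lower in D218Y (9.52 ± 0.00) than in R216Q (10.03 ± 0.04) or R216W (10.03 ± 0.05), although far above wild type (6.64 ± 0.17). Gata2 rose in D218Y but averaged 8.03 ± 0.04 in D218G, below wild type at 8.31 ± 0.08.

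**Figure D4:**
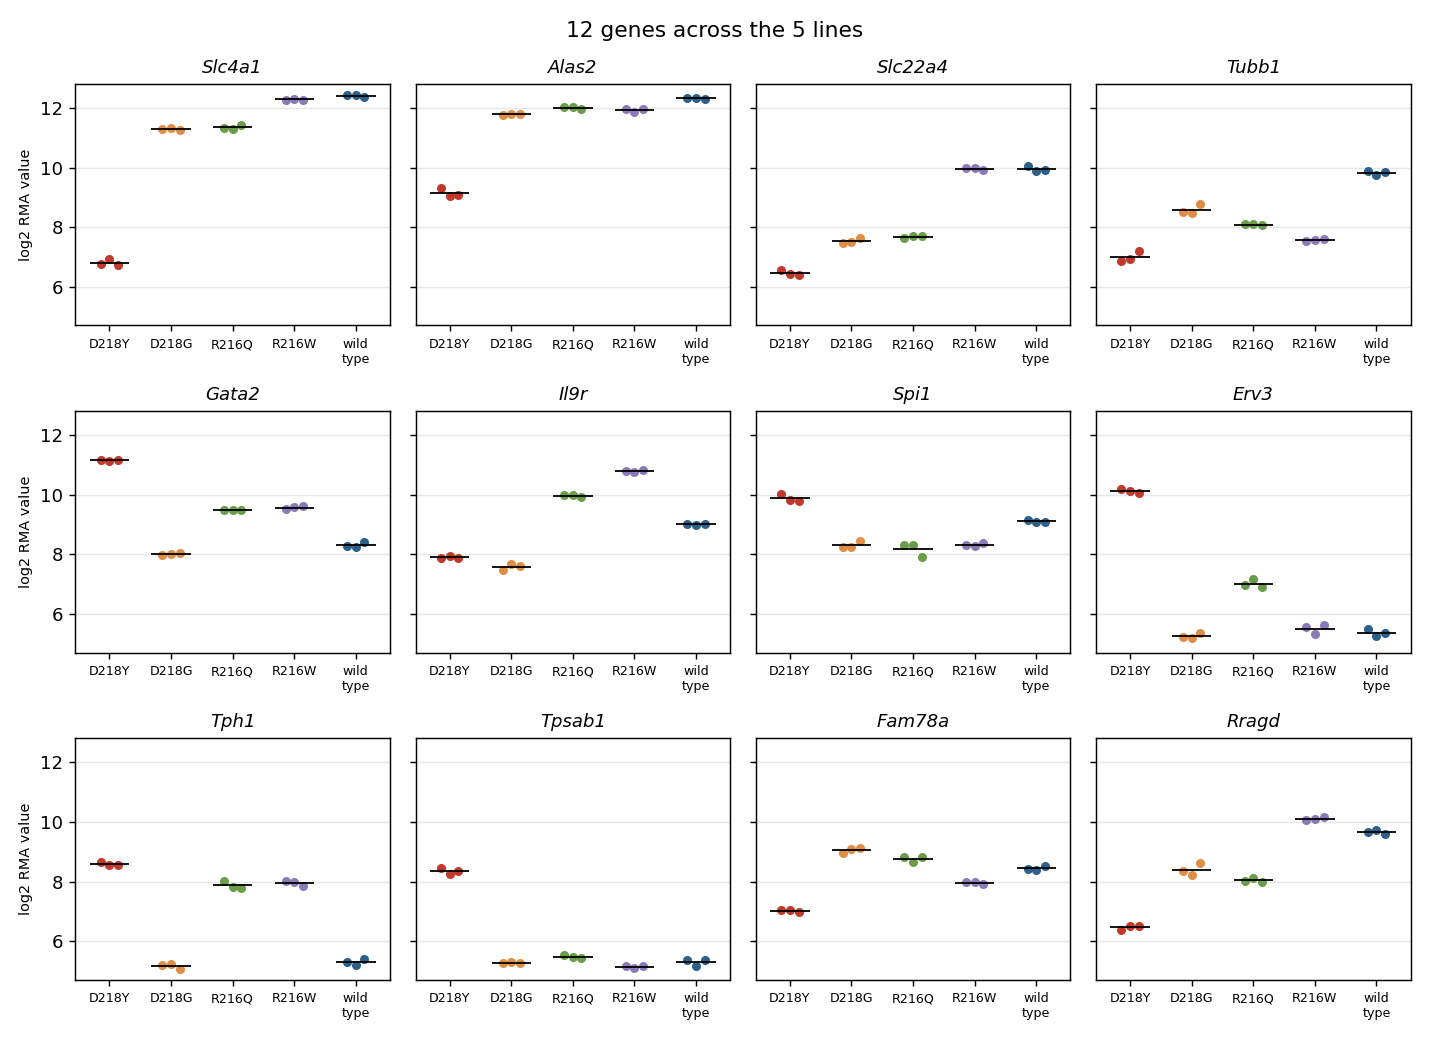
Log2 RMA values of 12 genes in all 15 arrays, by line (D218Y, D218G, R216Q, R216W, wild type), 3 arrays each, with the mean as a line. D218Y is lowest of the 5 lines for Slc4a1, Alas2, Slc22a4, Tubb1, Fam78a and Rragd, highest for Gata2, Spi1, Erv3, Tph1 and Tpsab1, and between other lines for Il9r.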

How the data were processed

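Total RNA was hybridised to Affymetrix mouse arrays. The deposited log2 values were made by the authors with Partek 6.6 and RMA, per the submitters' processing notes. Of 28350 probe sets, 21780 had 1 gene symbol, 1618 several and 4952 none listed; 21689 identifiers matched the RefSeq table. For the 996 genes with several probe sets the one with the highest mean over the 15 arrays was kept. Groups came from array titles. A model with a mean for each of the lines was fitted to all 15 arrays (limma 3.58.1, R 4.3.3; eBayes without trend; Benjamini-Hochberg over 19933 genes), with errors as moderated SE and calls at an adjusted p under 0.05. The procedure was run on simulated data with independent normal noise, few changed genes and no shift of the array medians. That run therefore does not bear on the scaling or on the direction of small changes. Alternatives covered scaling, filters, weights, probe set choice and each array left out. "Rose" and "fell" mean called genes.

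Genes named were the 15 largest rises and falls with a proper symbol and groups that did not overlap, up to 5 called and 2 uncalled members of each list, a fixed set, and those that set D218Y against the other lines. Other list members, and the genes in the figures, were chosen after their values were seen. The groups, members and lists were chosen with earlier results of these data known. The number of arrays limits the precision.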

Additional observations from a re-analysis of the deposited data

Results flagged for a closer look

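Some genes passed against wild type with opposite signs in D218Y and in another mutant line. The direct difference between the 2 lines was required to pass in limma too. Opposite signs past the threshold make that nearly certain, so it adds no support. The values below are D218Y minus the other line on the log2 scale, and the genes shown have the largest such differences. Comparisons of 2 lines with wild type share the wild type arrays.

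Between D218Y and D218G, 188 genes had opposite signs. D218Y was above D218G for Gata2 (3.14), Hoxc8 (1.83), Slc41a3 (1.74), Spi1 (1.56), Pstpip2 (1.56) and below it for Gdpd1 (-2.56), Rgs12 (-2.07), Fam78a (-2.05). Between D218Y and R216Q, 181 genes had opposite signs. D218Y was above R216Q for Lgals9 (2.42), Pkhd1l1 (1.84), Spi1 (1.71) and below it for Cdc25b (-2.22), Il9r (-2.06), Fam78a (-1.75), Il1bos (-1.62), Zfp36 (-1.59). Between D218Y and R216W, 572 genes had opposite signs. D218Y was above R216W for Pkhd1l1 (3.08), Ces2g (3.06), Lonrf2 (3.01) and below it for Rragd (-3.63), Pla2g4c (-3.44), Aqp8 (-3.44), Rgs18 (-3.15), Il9r (-2.89).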

How the results depend on the processing

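Against wild type the number of genes at least 2-fold different was 711, with 705 to 726 when each array was left out in turn and 666 to 766 under the other alternatives. The total of 8857 called genes was less stable, at 7220 to 9357 and 6542 to 11811. Which direction had more calls depended on the setting. Main calls were 4042 higher and 4815 lower, but there were more higher than lower under cyclic loess (4276 and 3502), for genes above the median level alone (3897 and 3347), at an adjusted p under 0.01 (3546 and 2996), with the array median as a covariate (3773 and 3386), without wild type replicate 3 (3854 and 3366) and without D218Y replicate 1 (3702 and 3584). At an adjusted p under 0.01 the lower genes were 2067 against D218G and 1859 against R216Q. Array weights gave 7216 lower genes against wild type, and 9935 genes, 5845 of them lower, against R216Q. Lower genes against D218G ran from 2462 to 5231 when each array was left out, the highest without D218G replicate 3. Without that array in any comparison, chosen after seeing the data as was the covariate, 4203 genes were higher and 5931 lower than wild type. Gata1 stayed between -0.31 and -0.28. Called list members numbered 401 to 441 with each array left out and 386 to 482 under the other alternatives, against 439. Of 473 called genes examined, 70 lost their call under at least 1 alternative, none of them with a change above 0.43. Besides those named above, they included Aldoc and Slc16a3 of glycolysis, Trib3 and Cbs of amino acid supply, and Ndufs1 and Uqcrc1 of oxidative phosphorylation. Ftl1, Tcf12, Il4ra and Pim2 were also among them. Hk1 read -0.12 with a gene's probe sets averaged (adjusted p = 0.0144) and Cebpb -0.15 under quantile normalization (adjusted p = 0.0305), against 0.02 and 0.01. The cause was not tested. The replicate numbers did not pair the arrays (same-number correlations of 0.02, -0.29 and -0.04), and with the replicate block 8305 genes were called.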
